A study of Rattus norvegicus with 24 samples.

Results

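Nrf2 (gene Nfe2l2) target genes of the oxidative stress response and enzymes tied to the supply of NADPH were followed in rat liver after inhalation of PCB 52, a polychlorinated biphenyl from a class of persistent industrial chemicals. The 9 genes, taken as a list of names and matched by their Entrez gene IDs, were Nqo1, Hmox1, Srxn1, Txnrd1, Osgin1, Slc7a11, Akr7a3, Pgd and Taldo1. All 9 were present among the 15319 gene IDs of both count tables, and 8 of the 9 passed the filter on low counts. Liver RNA of 24 Sprague-Dawley rats, an outbred stock, was sequenced in bulk, with 6 animals in each of 4 groups. The groups were females exposed to PCB 52, sham-exposed females, males exposed to PCB 52 and sham-exposed males. Exposed rats breathed, through the nose, air passed at 12 L/min over PCB 52 in 28 daily sessions of 4 hours, and the labels give no detail of what sham animals breathed. Females started when 42 days old and males when 39 days old. No genetic change and no second agent is named in the labels of any group.

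Nrf2 is a transcription factor that is held at a low level by Keap1, an adaptor that presents it for degradation. Oxidants and electrophiles modify Keap1, after which Nrf2 accumulates, pairs with small Maf proteins and binds antioxidant response elements in genes for quinone reduction, heme breakdown, thiol repair and glutathione supply. Many of these enzymes draw on NADPH, which the oxidative branch of the pentose phosphate pathway produces, in part through Pgd. In liver, quinone metabolites of lower-chlorinated biphenyls are one kind of electrophile this system is known to handle.

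Library totals ran from 6994832 to 9185511 counts, and levels are given as counts per 1e+06 (CPM) after scaling library sizes. The summed level of 9 hepatocyte marker genes was between 151836 and 212376 CPM in every library, so the labelled tissue was matched by its markers. Female and male libraries sat in separate tables and the sexes started exposure at different ages, so sex, table and age cannot be told apart in any comparison of females with males. Within groups, libraries were spread along 1 main axis of variation, which held 16.7% of the variance within female groups and 19.8% within male groups. Scores on it ran from −4.03 to 15.3 in PCB 52 females, −3.004 to 7.89 in sham females, −4.11 to 11.4 in PCB 52 males and −4.99 to 9.10 in sham males. Animals 13 to 16 by the labels' numbering, all exposed, had the 4 highest scores, from 10.4 to 15.3, and animals 11 and 12, both sham, followed with 9.10 and 7.89. In bulk tissue, more cells of a type and more RNA per cell cannot be told apart.

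Promoter windows from RefSeq (assembly GRCr8, 250 bases before to 50 after a gene's start) were matched for 8 of the 9 genes. The windows of Nqo1, Srxn1 and Txnrd1 are printed because Nqo1 had the smallest p of the 8 tested genes in the exposure comparisons, and Srxn1 and Txnrd1 varied together more closely than any other pair. Capitals mark matches, on either strand, to TGACNNNGC (the core of the antioxidant response element), TGAGTCA (an element of AP-1 factors), GCGTG (the core of the dioxin response element) and TTCNNNGAA (an element of STAT5 type). Nqo1 lies at chr19:52220218-52220517 on the minus strand, Srxn1 at chr3:161064562-161064861 on the plus strand and Txnrd1 at chr7:22755855-22756154 on the minus strand.
Nqo1 promoter: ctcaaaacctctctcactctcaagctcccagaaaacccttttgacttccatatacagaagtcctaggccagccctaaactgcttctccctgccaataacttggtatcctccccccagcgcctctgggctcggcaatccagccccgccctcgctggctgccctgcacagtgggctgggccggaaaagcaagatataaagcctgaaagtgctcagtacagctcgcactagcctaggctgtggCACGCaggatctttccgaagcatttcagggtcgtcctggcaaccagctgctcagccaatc
Srxn1 promoter: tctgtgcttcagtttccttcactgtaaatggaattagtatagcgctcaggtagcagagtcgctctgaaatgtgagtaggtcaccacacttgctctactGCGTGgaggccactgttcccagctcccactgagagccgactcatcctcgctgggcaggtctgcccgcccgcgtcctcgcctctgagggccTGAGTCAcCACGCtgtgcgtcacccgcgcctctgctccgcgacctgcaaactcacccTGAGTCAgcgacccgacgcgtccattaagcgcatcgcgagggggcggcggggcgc
Txnrd1 promoter: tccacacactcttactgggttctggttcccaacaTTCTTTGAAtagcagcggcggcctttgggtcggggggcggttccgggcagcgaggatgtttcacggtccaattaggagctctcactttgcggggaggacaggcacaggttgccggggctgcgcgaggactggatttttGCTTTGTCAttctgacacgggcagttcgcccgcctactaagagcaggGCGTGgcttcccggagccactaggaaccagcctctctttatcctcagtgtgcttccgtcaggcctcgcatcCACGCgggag
The printed Txnrd1 window held the antioxidant response element core at position −78 from the start, read on the minus strand. The other Txnrd1 window, which is not printed, held 0 matches to these elements. TGAGTCA stood at −62 and −5 in the Srxn1 window, and the match at −5 is followed by gc. The antioxidant response element was searched only as TGACNNNGC, so a form with another letter in place of its first C was not counted. The Srxn1 window is therefore not shown to lack such a form. The Nqo1 window held 1 match, CACGC at −10, which is GCGTG read on the minus strand. No printed match overlapped another. TGACNNNGC was found in 12.06% of all 33469 windows of this length and in 1 of the 9 windows of the listed genes (Txnrd1 has 2). TGAGTCA was found in 4.631% of all windows and in 1 of the 9, GCGTG in 29.7% and in 6 of the 9, and TTCNNNGAA in 8.874% and in 2 of the 9. These matches describe letters in a window and not sites of binding.

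**Figure D1:**
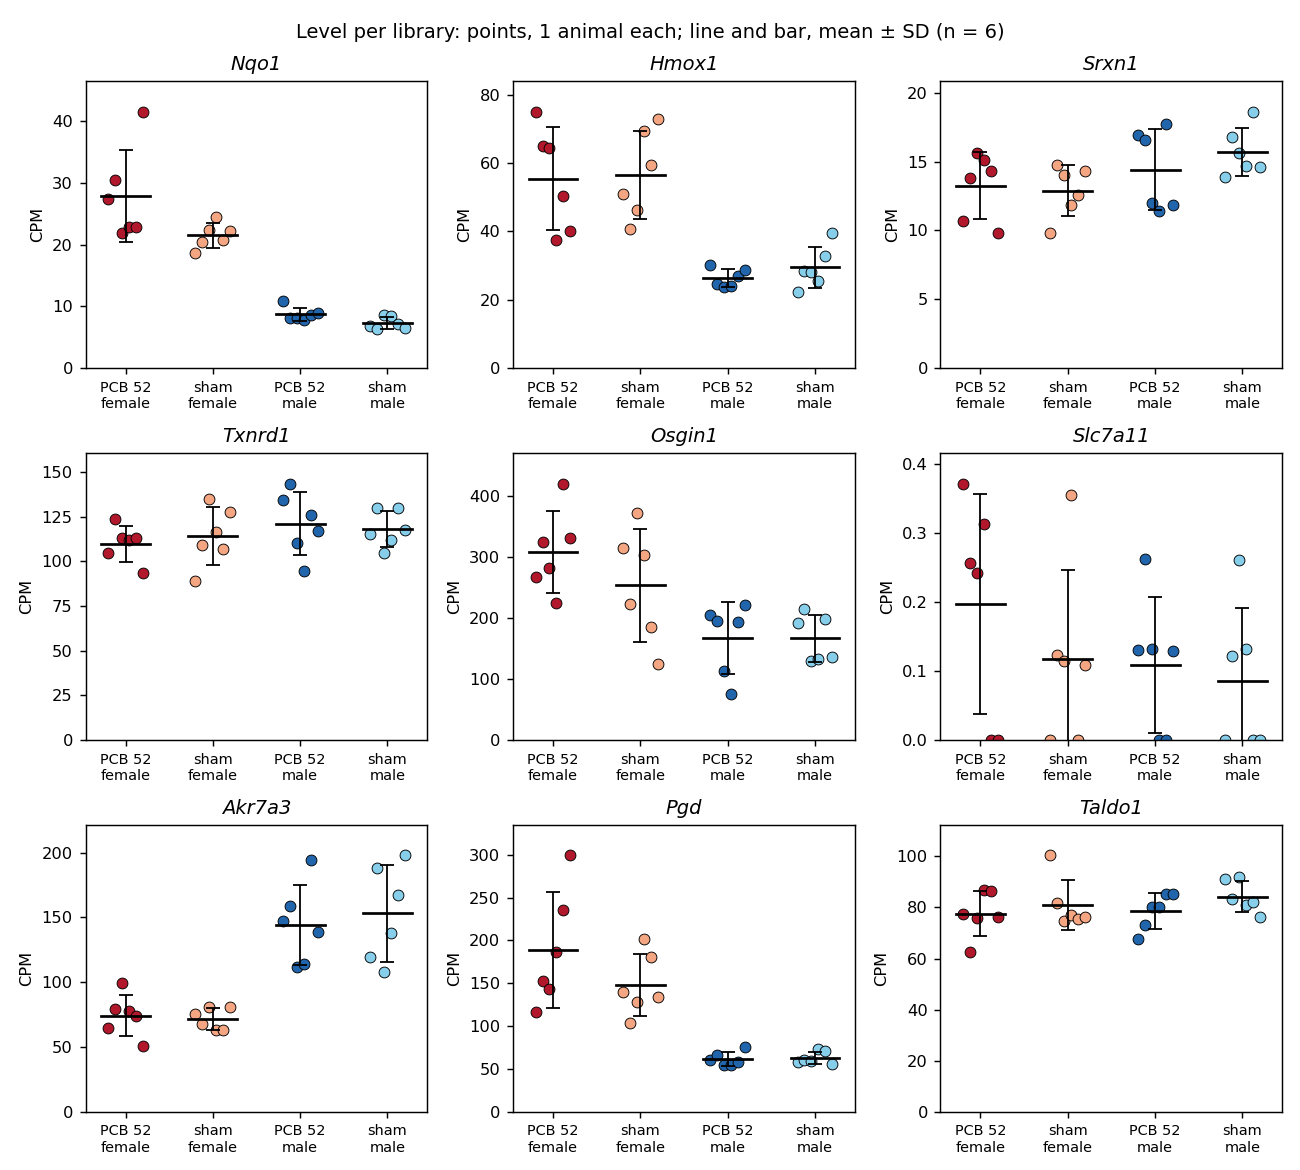
Level of each of the 9 genes in CPM (y axis, from 0) in PCB 52 females, sham females, PCB 52 males and sham males (x axis). Each point is 1 animal, and lines and bars give the mean ± SD (n = 6). Both female groups lie above both male groups for Nqo1 and Pgd and below them for Akr7a3, while exposed and sham animals of a sex overlap for every gene.

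Exposure to PCB 52 was not accompanied by a called change in any of the listed genes. With edgeR's quasi-likelihood test and Benjamini-Hochberg adjustment over all genes tested, 0 of the 8 tested genes passed an adjusted p of 0.05 in females, 0 in males and 0 for the average of both sexes. The background was the same, with 0% of 10251 genes called in females, 0% of 10180 in males and 0% of 10535 for the average. At an unadjusted p under 0.05 the listed genes gave 1 of 8 in females, 0 of 8 in males and 1 of 8 for the average, against 9.96%, 5.75% and 15.4% of all genes tested. Both of these were Nqo1. Exposed and sham ranges overlapped for all 8 genes in each sex, where 0.39% of all genes in females and 0.226% in males had ranges apart. DESeq2 called 28 genes in females, 1 in males and 105 for the average, and limma-voom 1 in females, 0 in males and 7 for the average, with 0 of the listed genes among them. Markers of Kupffer, erythroid, cholangiocyte, stellate, endothelial and hepatocyte cells gave 0 edgeR calls with exposure in either sex, as did all genes tested. These calls therefore say nothing of cell composition. Summed erythroid markers had a median of 29.6 CPM in PCB 52 females (16.9 to 140) and 90.4 CPM in sham females (41.2 to 157). In males the medians were 79.8 CPM after PCB 52 and 82.6 CPM after sham exposure. Medians of the other cell types in females differed by a smaller fold.

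Nqo1 (Entrez 24314) encodes the quinone reductase that uses NADH or NADPH to turn quinones into hydroquinones and is a widely used marker of Nrf2 activity. Its lowest, median and highest levels were 21.8, 25.2 and 41.5 CPM in PCB 52 females and 18.6, 21.5 and 24.5 CPM in sham females. The same values were 7.76, 8.39 and 10.8 CPM in PCB 52 males and 6.29, 7.01 and 8.61 CPM in sham males. Exposed and sham ranges overlapped in each sex, and 6 of 6 exposed females and 6 of 6 exposed males lay above the mean of their sham group. For the other tested members this number ran from 1 to 5 in females and 1 to 4 in males. Its share over all genes was not taken, and Nqo1 had the smallest p of the members. The Nqo1 log2 fold change was 0.37 ± 0.14 (SE) in females, with an edgeR adjusted p of 0.438. In males it was 0.25 ± 0.13, with an edgeR adjusted p of 0.829. Averaged over both sexes it was 0.31 ± 0.10, with a 95% interval of 0.11 to 0.51 and an edgeR adjusted p of 0.169. Across the other settings and with each library left out in turn, that adjusted p ran from 0.101 to 0.558. The highest Nqo1 level belonged to PCB 52 female replicate 6, and without it the female log2 fold change was 0.22.

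Hmox1 (Entrez 24451) encodes heme oxygenase, which opens the heme ring and releases iron, and which Kupffer cells, the resident macrophages of liver, express strongly. Levels were 37.6, 57.3 and 75.0 CPM (lowest, median, highest) in PCB 52 females and 40.7, 55.1 and 72.8 CPM in sham females. In males they were 23.6, 25.8 and 30.2 CPM after PCB 52 and 22.4, 28.2 and 39.5 CPM after sham exposure. The exposed range enclosed the sham range in females and lay inside it in males. Log2 fold changes of −0.03 ± 0.18 in females and −0.16 ± 0.12 in males had edgeR adjusted p-values of 0.964 and 0.844. Hmox1 also moved with the library axis, with r = 0.63 over 24 libraries after group means were subtracted. With the axis score as a covariate its log2 fold change was −0.22 in females and −0.27 in males, neither called, and without sham male replicate 6 the male value was −0.0613. In females it was −0.24 without animals 14 and 16, and from −0.14 to 0.0579 with each library left out in turn.

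Of the genes of thiol repair, neither Srxn1 nor Txnrd1 passed the exposure test in a sex. Srxn1 (Entrez 296271) encodes sulfiredoxin, which restores overoxidised peroxiredoxins, and Txnrd1 (Entrez 58819) encodes the cytosolic thioredoxin reductase that spends NADPH to keep thioredoxin reduced. Srxn1 ranged from 9.81 to 15.7 CPM in PCB 52 females (median 14.1), 9.84 to 14.7 CPM in sham females (13.3), 11.4 to 17.7 CPM in PCB 52 males (14.3) and 13.9 to 18.6 CPM in sham males (15.2). Txnrd1 ranged from 93.3 to 124 CPM in PCB 52 females (median 112), 88.9 to 135 CPM in sham females (113), 94.6 to 143 CPM in PCB 52 males (121) and 104 to 130 CPM in sham males (116). All 4 groups overlapped for both genes. The Txnrd1 log2 fold change was −0.06 in females, with a 95% interval of −0.26 to 0.15, and 0.03 in males, with an interval of −0.16 to 0.23. The Srxn1 log2 fold change was 0.04 in females (−0.25 to 0.32) and −0.13 in males (−0.40 to 0.14). Eid3, which overlaps Txnrd1 in the RefSeq table, had at most 10 counts in a library.

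Slc7a11 (Entrez 310392) encodes the light chain of the cystine and glutamate exchanger, which brings in cystine for glutathione synthesis. It had at most 3 counts in any library and did not enter the tests. Group totals were 10 counts in PCB 52 females, 6 in sham females, 5 in PCB 52 males and 4 in sham males. Counts were seen in 4 libraries of each of PCB 52 females, sham females and PCB 52 males, and in 3 of sham males, so a difference between groups was not detectable at this depth.

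Osgin1 (Entrez 171493), a stress-inducible growth inhibitor gene, and Akr7a3 (Entrez 26760), which encodes an aldehyde reductase that acts on the dialdehyde of aflatoxin, varied widely among animals of a group. Osgin1 ran from 225 to 421 CPM in PCB 52 females (median 303), 124 to 372 CPM in sham females (263), 76.0 to 221 CPM in PCB 52 males (194) and 130 to 215 CPM in sham males (163). Its log2 fold change was 0.28 ± 0.24 in females and −0.00293 ± 0.26 in males, with edgeR adjusted p-values of 0.717 and 1.00. The female value was 0.14 without sham female replicate 6, 0.17 without PCB 52 female replicate 5 and 0.42 without sham female replicate 3. Akr7a3 ran from 51.0 to 99.4 CPM in PCB 52 females (median 75.7) and 62.8 to 80.7 CPM in sham females (71.7). In males it ran from 112 to 194 CPM after PCB 52 (median 143) and 108 to 198 CPM after sham exposure (153). Exposed and sham animals overlapped for both genes, and the Akr7a3 log2 fold changes were 0.05 ± 0.13 in females and −0.09 ± 0.17 in males.

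Pgd (Entrez 100360180) encodes 6-phosphogluconate dehydrogenase, an NADPH-producing step of the pentose phosphate pathway, and Taldo1 (Entrez 83688) encodes transaldolase of its non-oxidative branch. Pgd levels were 117, 170 and 299 CPM (lowest, median, highest) in PCB 52 females and 104, 137 and 201 CPM in sham females. In males they were 54.2, 59.2 and 75.2 CPM after PCB 52 and 56.0, 59.9 and 73.6 CPM after sham exposure. The exposed females spread over the widest range and overlapped the sham females. The log2 fold change was 0.35 ± 0.23 in females (edgeR adjusted p = 0.626) and −0.04 ± 0.10 in males (edgeR adjusted p = 0.949), and the female value was 0.17 without PCB 52 female replicate 6 and 0.54 without animals 14 and 16. Taldo1 ran from 62.5 to 87.02 CPM in PCB 52 females (median 76.8), 74.5 to 100 CPM in sham females (76.7), 67.8 to 85.1 CPM in PCB 52 males (80.3) and 76.2 to 92.0 CPM in sham males (82.7). Its ranges overlapped in all 4 groups, with log2 fold changes of −0.06 ± 0.10 in females and −0.10 ± 0.08 in males. Taldo1 levels ran against the library axis, with r = −0.61 over 24 libraries.

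**Figure D2:**
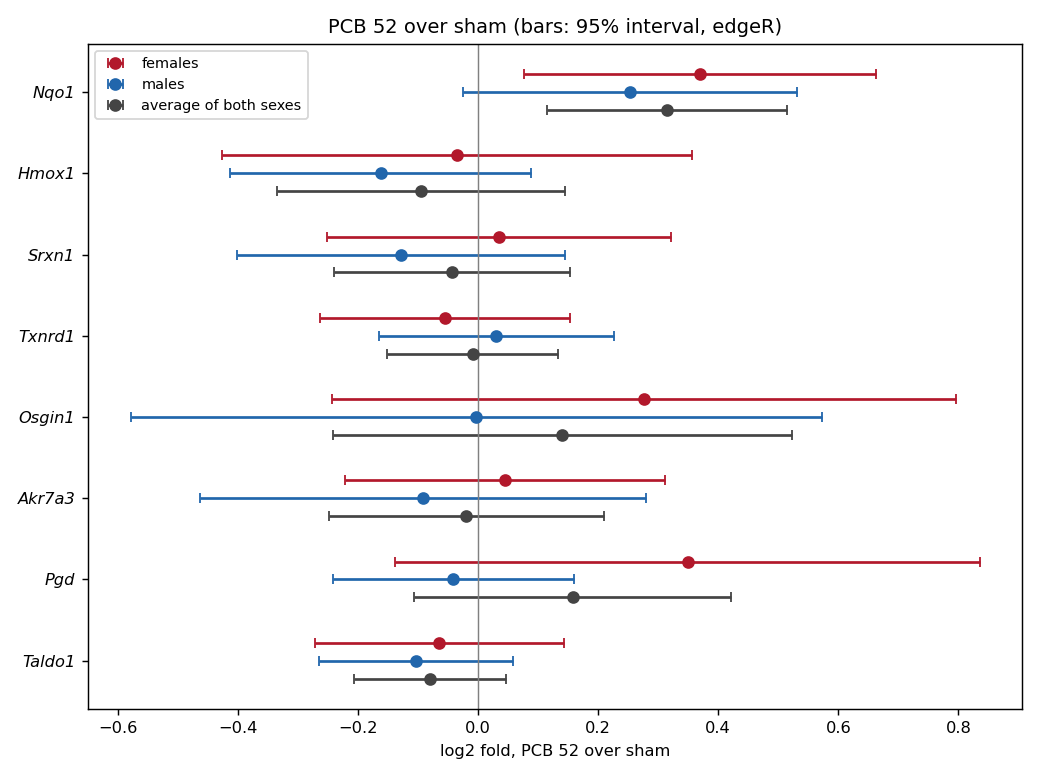
Log2 fold change of PCB 52 over sham (x axis) for the 8 tested genes (y axis), in females, in males and for the average of both sexes, with 95% intervals from edgeR as bars. The Nqo1 intervals in females (0.08 to 0.66) and for the average (0.11 to 0.51) leave out 0, and every other plotted interval spans it.

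The difference between the responses of the sexes was tested as an interaction in 1 fit of all 24 libraries. It was called for 0 of the 8 genes, against 0% of 10535 genes, and at an unadjusted p under 0.05 for 0 of 8 against 2.27%. Pgd had the smallest p of the 8, with a female minus male difference of 0.39 ± 0.26 on the log2 scale and a 95% interval of −0.14 to 0.92. This difference was 0.21 without PCB 52 female replicate 6 and 0.62 without animals 13 to 16, with no call in either case. For Nqo1 the difference was 0.12 ± 0.20. The median log2 fold change over the 8 genes was 0.04 in females and −0.07 in males, beside 0.00323 and 0.00344 over all genes tested.

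Females and males differed in several of the listed genes, in exposed and in sham animals alike. Among exposed animals, females had higher levels of Nqo1, Hmox1, Pgd and Osgin1 and a lower level of Akr7a3. Among sham animals, females had higher Nqo1, Hmox1 and Pgd and lower Akr7a3. That is 5 of 8 called among exposed animals, against 19.9% of all genes tested (10.1% higher and 9.73% lower in females). Among sham animals it is 4 of 8, against 20.3% (10.7% higher and 9.62% lower). The ranges of females and males did not overlap for 5 of 8 genes among exposed animals (9.81% of all genes) and 4 of 8 among sham animals (11.5%). These genes and the lists below were chosen with earlier results of these data known. Counts set beside the share of all genes are therefore a description and not a test.

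Nqo1 averaged 27.8 ± 7.47 CPM in PCB 52 females and 8.73 ± 1.09 CPM in PCB 52 males (SD, n = 6 each). Sham females averaged 21.5 ± 2.01 CPM and sham males 7.31 ± 0.995 CPM. Every female lay above every male in both pairs, 3.19-fold among exposed animals (edgeR adjusted p = 8.06e-11) and 2.94-fold among sham animals (edgeR adjusted p = 7.25e-10). In order of mean level the groups ran PCB 52 females, sham females, PCB 52 males, sham males, and the neighbours of the same sex in that order overlapped.

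Pgd showed a fold of like size. It averaged 189 ± 67.6 CPM in PCB 52 females and 61.4 ± 8.16 CPM in PCB 52 males, and 148 ± 36.1 CPM in sham females and 63.0 ± 7.27 CPM in sham males. Females again lay apart from males, 3.08-fold higher among exposed animals (edgeR adjusted p = 2.99e-07) and 2.35-fold higher among sham animals (edgeR adjusted p = 1.67e-05). Taldo1 did not pass in either pair, with log2 differences of −0.02 ± 0.09 among exposed and −0.06 ± 0.09 among sham animals.

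Hmox1 averaged 55.3 ± 15.1 CPM in PCB 52 females and 26.4 ± 2.68 CPM in PCB 52 males, and 56.5 ± 12.8 CPM in sham females and 29.4 ± 6.02 CPM in sham males. Females were 2.10-fold higher among exposed animals (edgeR adjusted p = 1.90e-05) and 1.92-fold higher among sham animals (edgeR adjusted p = 9.64e-05), with no overlap in either pair. Most Kupffer cell markers lay in the same direction. Of 11 such markers, 7 were called higher in females among exposed animals, against 10.1% of all genes. Among sham animals 8 were called higher, against 10.7%. Marco alone lay below 0, with log2 differences of −0.36 among exposed and −0.18 among sham animals, neither called. The median log2 difference over the 11 was 0.35 among exposed and 0.38 among sham animals, beside 1.07 and 0.94 for Hmox1. Of the 11 markers, 0 were without counts in any group. Their summed level ran from 727 to 936 CPM in PCB 52 females, 802 to 1044 CPM in sham females, 643 to 762 CPM in PCB 52 males and 651 to 759 CPM in sham males. The part of these cells in the Hmox1 difference was not tested.

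Akr7a3 ran the other way. It averaged 74.2 ± 16.2 CPM in PCB 52 females and 144 ± 30.7 CPM in PCB 52 males, and 71.7 ± 8.32 CPM in sham females and 153 ± 37.1 CPM in sham males. Every female lay below every male in the same exposure group, with a log2 difference of −0.96 ± 0.16 among exposed animals (edgeR adjusted p = 5.07e-05) and −1.09 ± 0.16 among sham animals (edgeR adjusted p = 8.79e-06). Akr7a2, the other aldehyde reductase of this family in the table, can share reads with Akr7a3, which leaves both uncertain to that extent. Its log2 difference was −0.25 ± 0.12 among exposed animals (edgeR adjusted p = 0.143) and −0.32 ± 0.12 among sham animals (edgeR adjusted p = 0.0465).

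Osgin1 averaged 308.4 ± 67.4 CPM in PCB 52 females and 167 ± 58.4 CPM in PCB 52 males, and 254 ± 92.4 CPM in sham females and 167 ± 38.6 CPM in sham males. It was 1.84-fold higher in females among exposed animals, where the ranges did not overlap (edgeR adjusted p = 0.0188, and 0.0511 without PCB 52 female replicate 5). Among sham animals the ranges overlapped, with a log2 difference of 0.60 ± 0.26 and an edgeR adjusted p of 0.117, which was 0.0379 without sham female replicate 6. The interaction gave no call for Osgin1, so the pairs are not shown to differ. Srxn1 and Txnrd1 passed in neither pair. Their log2 differences were −0.12 ± 0.14 and −0.14 ± 0.10 among exposed animals, and −0.29 ± 0.14 and −0.05 ± 0.10 among sham animals.

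**Figure D3:**
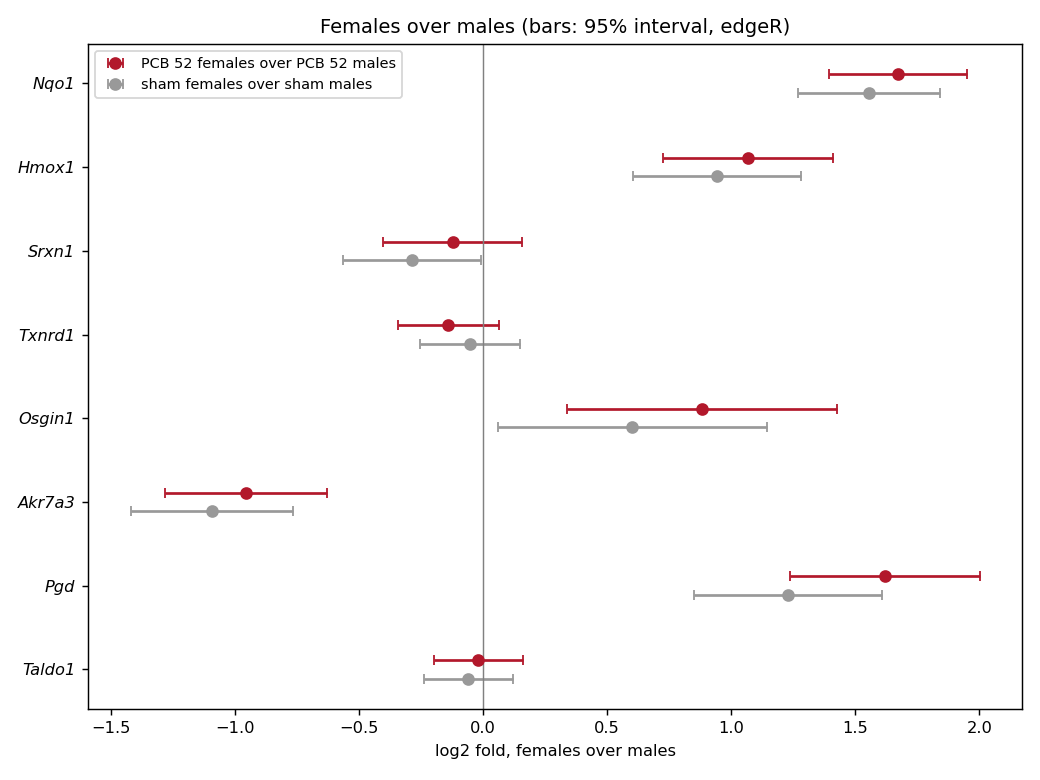
Log2 fold of females over males (x axis) for the 8 tested genes (y axis), among PCB 52 animals and among sham animals, with 95% intervals from edgeR as bars. Nqo1, Hmox1 and Pgd lie right of 0 and Akr7a3 left of 0 in both pairs, while Srxn1, Txnrd1 and Taldo1 lie between −0.29 and −0.02.

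Other enzymes of NADPH supply and of the pentose phosphate pathway, a list of 10 genes, were read in the same comparisons. Among exposed animals 4 of the 10 were higher in females and 1 was lower, against 10.1% and 9.73% of all genes. Among sham animals 2 were higher and 1 was lower, against 10.7% and 9.62%. Me1, the cytosolic malic enzyme, had medians of 93.0 CPM in PCB 52 females and 38.6 CPM in PCB 52 males, and 64.5 CPM in sham females and 33.9 CPM in sham males. Its female over male log2 fold was 1.41 ± 0.22 among exposed animals (edgeR adjusted p = 2.57e-05) and 0.89 ± 0.22 among sham animals (edgeR adjusted p = 0.00385). Idh1, the cytosolic isocitrate dehydrogenase, gave 0.56 ± 0.10 among exposed and 0.47 ± 0.10 among sham animals. Idh2, the mitochondrial isocitrate dehydrogenase, was lower in females, with −1.01 ± 0.10 among exposed and −1.20 ± 0.10 among sham animals. Rpia, the ribose phosphate isomerase of the non-oxidative branch, was higher in females among exposed animals, with 0.63 ± 0.15 (edgeR adjusted p = 0.00245). Tkt, transketolase, was also higher there, with 0.32 ± 0.10 (edgeR adjusted p = 0.0273). In this comparison Tkt lay outside the naming rule and was named after its value was seen. Among sham animals Rpia gave 0.09 ± 0.15, and its interaction, 0.54 ± 0.21, was not called (edgeR adjusted p = 1.00).

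For exposure, 0 of the 10 genes were called in either sex. The smallest p in females belonged to Me1, with a log2 fold change of 0.61 ± 0.19 (edgeR adjusted p = 0.391), followed by Rpe, an epimerase of the non-oxidative branch, with 0.29 ± 0.10 (edgeR adjusted p = 0.395). In males the smallest p belonged to Rpia, with −0.47 ± 0.15 (edgeR adjusted p = 0.829), and Me1 gave 0.09 ± 0.22. Rpia averaged 6.90 ± 1.59 CPM in PCB 52 males and 9.54 ± 0.905 CPM in sham males, beside 10.7 ± 2.89 CPM in PCB 52 females and 10.1 ± 1.03 CPM in sham females (SD, n = 6 each). The median over the 10 genes was 0.11 in females and 0.04 in males, beside 0.00323 and 0.00344 over all genes tested.

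**Figure D4:**
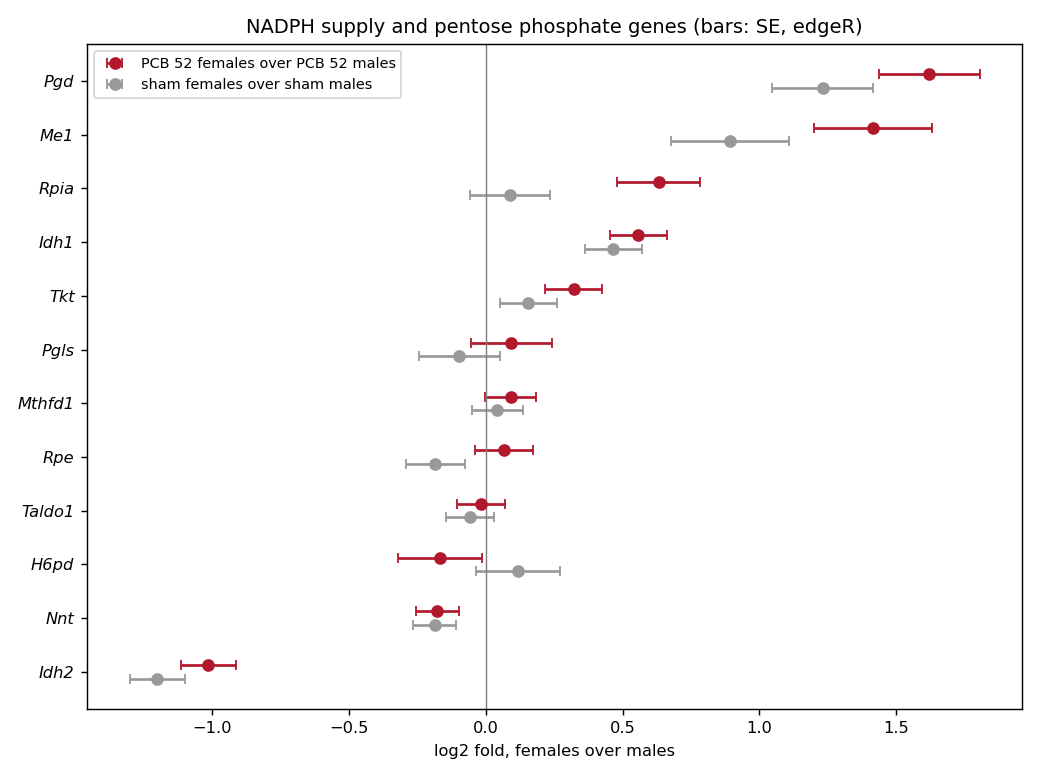
Log2 fold of females over males (x axis) for Pgd, Taldo1 and the 10 other genes of NADPH supply and the pentose phosphate pathway (y axis), among PCB 52 animals and among sham animals, with SE from edgeR as bars. Pgd and Me1 lie farthest right of 0 in both pairs and Idh2 lies left of 0.

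The regulators of the pathway were read next. Of 10 listed components 9 were measured and tested, and exposure called 0 of them in either sex. Nfe2l2, which encodes Nrf2 itself, had medians of 98.4 CPM in PCB 52 females, 86.7 CPM in sham females, 78.9 CPM in PCB 52 males and 81.8 CPM in sham males. Its log2 fold change with exposure was 0.18 ± 0.10 in females (edgeR adjusted p = 0.557) and −0.01 ± 0.10 in males (edgeR adjusted p = 0.984). Keap1 gave −0.15 ± 0.11 in females and −0.11 ± 0.09 in males. Between the sexes the gene called was Maff, a small Maf partner, at −1.69 ± 0.43 in females over males among exposed animals (edgeR adjusted p = 0.00436). That is 1 of 9 among exposed animals, against 19.9% of all genes called, and 0 of 9 among sham animals, against 20.3%. Maff was near the floor, with 42 counts over 6 libraries in PCB 52 females and 129 in PCB 52 males. Its levels ran from 0.124 to 1.42 CPM in PCB 52 females and 0.658 to 4.99 CPM in PCB 52 males, so its fold rests on few reads. Among sham animals Maff gave −0.93 ± 0.40 (edgeR adjusted p = 0.109). Its interaction, −0.76 ± 0.59, was not called, so the pairs are not shown to differ.

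Other known Nrf2 targets, 26 listed and 24 tested in the comparison of the sexes, did not share 1 direction. Among exposed animals 5 were higher in females and 6 lower, against 19.9% of all genes called in either direction, and among sham animals 5 were higher and 7 lower, against 20.3%. Abcc3, an efflux transporter of conjugates, was higher in females by 2.71 ± 0.21 on the log2 scale among exposed and 2.60 ± 0.20 among sham animals. Gclm, the modifier subunit of the enzyme that starts glutathione synthesis, was lower, with −1.09 ± 0.12 and −1.12 ± 0.12, as was Gstm1, a glutathione transferase, with −1.30 ± 0.12 and −1.34 ± 0.12. With exposure 0 of them were called in either sex. The smallest p in females belonged to Ugt1a6, a glucuronosyltransferase also listed among the AhR targets, at 0.48 ± 0.12 (edgeR adjusted p = 0.318), and in males to Ugdh, which makes UDP-glucuronate, at 0.27 ± 0.09 (edgeR adjusted p = 0.829).

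Among 13 other antioxidant enzymes, 0 were called with exposure in either sex. Gpx1, a glutathione peroxidase, was higher in females by 1.196 ± 0.12 on the log2 scale among exposed and 1.33 ± 0.13 among sham animals. Cat, catalase, was lower, with −0.67 ± 0.09 and −0.66 ± 0.09. Others of the list were also called in each pair, in both directions. Of all genes, 19.9% were called among exposed and 20.3% among sham animals. Of 12 ATF4 targets, a list included because Slc7a11 is also under ATF4, and of 3 tested AhR targets, 0 were called with exposure. The same held for all genes, so the absence of calls does not show that these lists were unchanged. In females several ATF4 targets had an unadjusted edgeR p under 0.05, some higher and more lower. Their share of the list was larger than the 9.96% of all genes. Cyp1a1, the classical AhR target, gave −0.15 ± 0.36 in females and −0.31 ± 0.37 in males.

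Variation among animals of a group was described by Pearson's r of log2 CPM after each group's mean was subtracted, over 24 libraries. These libraries may share sequencing depth, RNA quality and any batch, so r is given as a description. Over the 28 pairs of the 8 genes r ran from −0.557 to 0.764, with a median of 0.0191 and 14 pairs above 0. Srxn1 and Txnrd1 gave the highest value, 0.764, with 0.739 in females and 0.792 in males. Each of them also varied with Akr7a3, at 0.640 for Srxn1 and 0.606 for Txnrd1. Nqo1 varied with Pgd at 0.409 and against Akr7a3 at −0.489. The lowest value, −0.557, was between Txnrd1 and Taldo1.

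**Figure D5:**
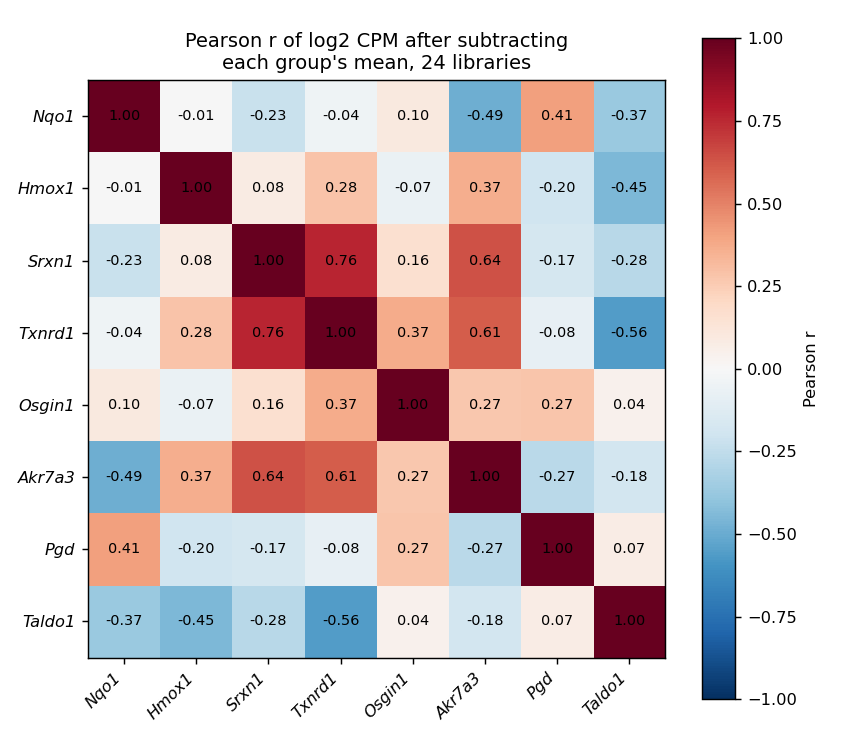
Pearson's r between the 8 tested genes (both axes) of log2 CPM after each group's mean was subtracted, over 24 libraries, with colour from −1 to 1. Srxn1, Txnrd1 and Akr7a3 form a block of values of 0.606 to 0.764, and Taldo1 lies against Txnrd1.

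By the same measure, the gene most like each of the 8 was sought among 10108 genes, with the listed genes left out. Srxn1 was closer to Txnrd1 (r = 0.764), itself a listed gene, than to any of these. Each r below is the highest found in that search, and the height that selection alone would give was not computed. Nqo1 was closest to Mug1 (r = 0.803), Hmox1 to Atad2 (0.771), Srxn1 to Camsap1 (0.736) and Txnrd1 to Cggbp1 (0.801). Osgin1 was closest to Foxa2 (0.771), Akr7a3 to B630019K06Rikl (0.712), Pgd to Acacb (0.793) and Taldo1 to Rpl27 (0.888). Acacb, an acetyl-CoA carboxylase, followed Pgd more closely in females (r = 0.939) than in males (0.333), over 12 libraries each. With the library axis removed, the value was 0.571 for Hmox1 and Atad2 and 0.832 for Taldo1 and Rpl27.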

How the data were processed

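Bulk liver RNA was sequenced in 24 libraries, 1 per animal. The authors deposited raw gene counts in 1 table for each sex, per the labels. FastQC, HISAT2 and build rn6 come from the submitters' processing notes. The counting tool, annotation and strand setting are not given in the sources used here, so reads of overlapping, antisense or near-identical genes could not be told apart. Of 15319 gene IDs, 15230 matched a symbol in RefSeq's GRCr8 table, and promoter windows came from the same assembly, which differs from the authors' build.

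Counts were tested in R 4.3.3 with edgeR 4.0.16 (TMM factors, filterByExpr with a minimum count of 10 and a minimum total of 15, robust quasi-likelihood, two-sided, Benjamini-Hochberg over all genes tested, threshold 0.05). Exposure was fitted within each sex's table. The average, the interaction and the comparisons of the sexes came from 1 fit of 24 libraries. Replicates differed beyond sampling noise (lowest chi-square per degree of freedom 7.01), and the tests were tried on simulated counts. The library axis is the leading principal component of group-centred log2 CPM (prior count 2), scored in each sex with weights from the other and with the listed genes left out. Its sign was set so that ribosomal protein genes had a negative mean weight.

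The members and lists were chosen with earlier results of these data known. Named genes were the 9 members, Nfe2l2 and Keap1, and up to 4 genes of smallest p in each list and comparison. For each member they included up to 3 genes of highest r among non-members of at least 1 CPM in all 4 groups. Alternatives were RLE factors, no filter, DESeq2 1.42.0, limma-voom (limma 3.58.1) with quality weights, a filter on 1 CPM in at least 6 libraries, an added term for the library axis, animals 13 to 16 left out, all 24 libraries in 1 fit, a block for consecutively numbered animals and each library left out in turn. A gene that the naming rule selects is not reported here.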

Additional observations from a re-analysis of the deposited data

Results flagged for a closer look

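In 2 of 32 tests of a gene in a group of 6, 1 animal stood far from the other 5 by Dixon's criterion, where chance gives about 1 in 20. Nqo1 was 10.8 CPM in PCB 52 male replicate 1, and the gap to the next animal was 0.638 of the group's range, above the critical 0.625. Taldo1 was 100.4 CPM in sham female replicate 1, with a gap of 0.722 of the range. Without PCB 52 male replicate 1 the male Nqo1 log2 fold change was 0.18, and without sham female replicate 1 the female Taldo1 log2 fold change was 0.01.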

How the results depend on the processing

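The called members in the comparisons of the sexes kept their direction under every setting, and their number was 4 to 5 in each pair with each library left out in turn, Osgin1 being the gene gained or lost. Over all genes, the count called for exposure in females was 28 with DESeq2, 1 with limma-voom, 1 with all 24 libraries in 1 fit and 0 to 8 with a library left out (8 without PCB 52 female replicate 4). In males DESeq2 called 1, and for the average DESeq2 called 105, limma-voom 7, and leaving out a library gave 0 to 15 (15 without PCB 52 female replicate 4). No member was called for exposure under any of these settings. Directions that turned were all of uncalled members, on the log2 scale, and the cause was not tested. In females Srxn1 was −0.00679 with limma-voom, and Taldo1 was 0.0159 with the library axis as a covariate and 0.00852 without animals 13 to 16. In males Txnrd1 was −0.0562 with the axis and −0.0817 without animals 13 to 16, and Osgin1 was 0.000924 with all 24 libraries in 1 fit. Without animals 13 to 16 the interaction was −0.0413 for Hmox1 and 0.00503 for Txnrd1, and Srxn1 in PCB 52 females over PCB 52 males was 0.0556. With each library left out, female responses ran from −0.14 to 0.0579 for Hmox1, −0.0288 to 0.11 for Srxn1, −0.0561 to 0.13 for Akr7a3 and −0.0979 to 0.0117 for Taldo1. Male responses ran from −0.0251 to 0.0861 for Txnrd1, −0.10 to 0.14 for Osgin1 and −0.11 to 0.0021 for Pgd. The average ran from −0.0399 to 0.0220 for Txnrd1 and −0.0710 to 0.0250 for Akr7a3, the Nqo1 interaction from −0.0341 to 0.19, Txnrd1 in sham females over sham males from −0.11 to 0.0099, and Taldo1 in PCB 52 females over PCB 52 males from −0.0579 to 0.0398. No paired analysis was possible for exposure because each animal has a number of its own, and the average could not be estimated with a block for consecutively numbered animals. That block changed no call of a member in the comparisons of the sexes.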
